A study of Mus musculus with 9 samples.

Results

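The heat shock, DNAJ and protein disulfide isomerase (PDI) chaperones were followed by bulk RNA-Seq through the regeneration of mouse liver. Members were the protein-coding genes of the deposited count table with names of the Hspa, Hspb, Hspd, Hspe, Hsph, Hsp90, Dnaja, Dnajb, Dnajc and Pdia families. The rule found 78 genes of 43346 in the table, under 77 symbols, because Dnajc19 was listed as a pair of overlapping genes with nearly equal counts. By the textbook location of the protein, 37 genes were assigned to the cytosol or nucleus, 17 to the endoplasmic reticulum (ER), 9 to mitochondria and 15 to other or unassigned sites. A total of 65 members had enough counts for testing, and the 13 others had between 0 and 56 counts over all libraries. Those 13 were Hspb2, Hspb3, Hspb7, Hspb9, Hspa1l, Pdia2, Dnajb3, Dnajb7, Dnajb8, Dnajb13, Dnajc5b, Dnajc5g and Dnajc6, of which Hspb3, Dnajb8, Dnajc5b and Dnajc5g had 0 counts throughout.

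Each of 3 groups held 3 liver samples of mice labelled C57/BL6, aged 12 weeks (male C57BL/6J in the methods). Baseline livers were the tissue resected from vehicle-treated mice at 70% partial hepatectomy. The other groups were remnants taken 40 h later from mice given either vehicle, which was saline, or NSC-87877 (NSC). The paper describes NSC as an inhibitor of the phosphatases SHP1 and SHP2. NSC was given at 7.5 mg/kg per dose with 2 doses per day, starting before surgery and going on until euthanasia. All mice, baseline mice included, had thus been dosed and operated on, and no group had NSC without regrowth. The labels do not say whether libraries with the same number came from the same mouse, and the p-values measure the spread between these livers.

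Chaperones bind unfolded protein and keep it from aggregating. Hsp70 proteins hold exposed stretches in an ATP cycle that J-proteins of the DNAJ families start and that nucleotide exchange factors reset, and Hsp90 proteins finish the folding of selected clients. The cytosol, the ER and the mitochondrion each have their own Hsp70, and in the ER the PDI enzymes form the disulfide bonds of secreted proteins. Heat shock factors induce the cytosolic set, and the unfolded protein response induces the ER set. Hepatocytes secrete most plasma proteins and carry a large ER.

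Libraries held between 23997363 and 42887589 counts assigned to genes. Levels are given as CPM, which are counts relative to the TMM-scaled library size, and levels of different genes are compared only as the deposited FPKM, which divides by gene length. A gene was called when the adjusted p (edgeR quasi-likelihood test, Benjamini-Hochberg over 15024 genes) was under 0.05. Hepatocyte markers such as Alb summed to 99750 to 141300 CPM in every library, whereas 3 of 4 pancreatic acinar markers and Myh4 of skeletal muscle were at 0 throughout. That sum is mostly Alb (mean 92300 CPM at baseline), and single hepatocyte markers moved. Tat averaged 3710, 1560 and 970 CPM and Fgb 6010, 15600 and 11300 CPM at baseline, with vehicle and with NSC. Of the 6, 1 was called higher and 1 lower with vehicle, and 1 higher and 2 lower with NSC. In whole liver, fewer cells of a type and less RNA per cell cannot be told apart. Vehicle replicate 3 stood apart for chaperones: it was the highest library for 25 of 65 members (38.5%), against 6.47% of all tested genes. Baseline replicate 2 was the lowest library for 23 of 65 members. The matching share of all tested genes was not taken, so whether this is particular to chaperones was not tested. Member calls lost without vehicle replicate 3 are marked as such. The pathway genes outside the member list, given further below, have no values without it.

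At baseline the most abundant chaperone transcripts belonged to the constitutive Hsp70 and Hsp90 proteins of all 3 compartments. Hsp90ab1, the constitutive cytosolic Hsp90, led with 262 ± 37.1 FPKM (SD, n = 3). The ER paralog Hsp90b1 (Grp94) had 206 ± 22.8 FPKM and Hspa5 (BiP), the Hsp70 of the ER, had 186 ± 50.5 FPKM. Hspa8, the constitutive cytosolic Hsp70, had 143 ± 12.3 FPKM, and Hspa9, the mitochondrial Hsp70, had 136 ± 4.10 FPKM. These were followed by Hspd1 with 129 ± 5.19, Pdia3 with 124 ± 12.6, Pdia4 with 101 ± 29.1, Hspb8 with 92.4 ± 15.4 and Pdia6 with 84.7 ± 9.34 FPKM. In that order the mean ± SD of each gene overlapped that of the next. The stress-inducible Hsp70 genes were far lower, with Hspa1b at 0.534 ± 0.109 FPKM and Hspa1a at 0.0687 ± 0.0116 FPKM.

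Vehicle-treated livers 40 h after hepatectomy had higher transcript levels of the ER folding machinery than resected tissue. In this comparison 12.7% of all tested genes were called higher and 11% lower. Of the members, 15 of 65 were called higher (23.1%) and 0 lower, and 27 of 65 had an unadjusted p under 0.05, where 37% of all tested genes did. By compartment, 8 of 16 ER genes, 6 of 28 cytosolic or nuclear genes, 0 of 9 mitochondrial genes and 1 of 12 others were called higher. The median log2 fold change was 0.68 in the ER, 0.40 in the cytosol and -0.09 in mitochondria, against 0.01 over all tested genes. Without vehicle replicate 3 the ER count was 6 of 16 and the cytosolic count was 2 of 28, with medians of 0.62 and 0.25, where 9.12% of all tested genes were called higher. The cytosolic count was also 2 without baseline replicate 1, and 3 without baseline replicate 2 or 3. In those fits 7.96%, 10.1% and 8.03% of all tested genes were called higher, in the order of the replicates.

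Hspa5, located at chr2:34771970-34777547 (GRCm38), was the ER chaperone around which the other members work. It had 876, 571 and 995 CPM in baseline livers, 1824, 1199 and 2292 CPM with vehicle and 1135, 1199 and 1042 CPM with NSC. Every remnant lay above every baseline liver, and the NSC livers lay between the groups, with NSC replicate 2 just under vehicle replicate 2. Hspa5 rose by 1.12 ± 0.26 (log2 fold change ± SE) with vehicle (adjusted p = 0.00872), and its value with NSC was 0.47 ± 0.26 (adjusted p = 0.176).

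Hsp90b1, the ER Hsp90 that folds receptors and integrins, had 912, 753 and 920 CPM at baseline, 1649, 1087 and 2449 CPM with vehicle and 1338, 1366 and 1126 CPM with NSC. It rose by 1.00 ± 0.26 with vehicle (adjusted p = 0.0147), a call lost without vehicle replicate 3 (0.67) or baseline replicate 2, and was 0.57 ± 0.26 with NSC (adjusted p = 0.104). Both 40 h groups lay above baseline, and they overlapped each other.

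The disulfide isomerases divided into those called with vehicle and those that were not. Pdia6 (P5) had 307, 311 and 368 CPM at baseline, 627, 483 and 669 CPM with vehicle and 465, 395 and 398 CPM with NSC, so that the 3 groups did not overlap. It rose by 0.85 ± 0.17 with vehicle (adjusted p = 0.00472), whereas the NSC value was 0.35 ± 0.17 (adjusted p = 0.134). Pdia4 (ERp72) had 266, 183 and 330 CPM at baseline, 483, 346 and 515 CPM with vehicle and 321, 257 and 237 CPM with NSC. Its vehicle livers lay above all others, and the NSC livers fell within the baseline range. Pdia4 rose by 0.79 ± 0.23 with vehicle (adjusted p = 0.0287), a call lost without baseline replicate 1 or 2 or vehicle replicate 1 or 3, and stood at 0.06 ± 0.23 with NSC (adjusted p = 0.854). Pdia3 (ERp57), which acts with calnexin and calreticulin on glycoproteins, was not called with vehicle (0.57 ± 0.20, adjusted p = 0.0617) or with NSC (0.34 ± 0.20, adjusted p = 0.218).

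Among the J-proteins of the ER, Dnajc10 (ERdj5), a disulfide reductase of ER-associated degradation, changed most and rose in both 40 h groups. It had 19.9, 23.9 and 22.0 CPM at baseline, 89.7, 58.5 and 81.6 CPM with vehicle and 74.4, 103 and 76.3 CPM with NSC. All remnants lay far above all baseline livers, and the 40 h groups overlapped. The log2 fold change was 1.80 ± 0.19 with vehicle (adjusted p = 0.000108) and 1.95 ± 0.19 with NSC (adjusted p = 4.865e-05). Hspa13, an Hsp70-like ATPase of microsomes, rose likewise by 1.17 ± 0.19 with vehicle (adjusted p = 0.00145) and 1.25 ± 0.19 with NSC (adjusted p = 0.000659). Dnajb9 (ERdj4), a BiP cofactor that restrains the IRE1 sensor, had 33.4, 23.3 and 30.2 CPM at baseline, 73.2, 40.0 and 75.1 CPM with vehicle and 75.1, 61.0 and 43.1 CPM with NSC. Its log2 fold changes were 1.12 ± 0.27 (adjusted p = 0.0124) and 1.04 ± 0.27 (adjusted p = 0.0119), and the vehicle call was lost without vehicle replicate 3. The NSC call was lost, at 0.54 (adjusted p = 0.0868 by edgeR), under a correction of each library for GC content that was chosen after seeing the data.

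Dnajb11 (ERdj3), which hands clients to BiP, had 90.3, 70.6 and 97.2 CPM at baseline, 151, 114 and 182 CPM with vehicle and 113, 103 and 89.7 CPM with NSC. It rose by 0.79 ± 0.19 with vehicle (adjusted p = 0.0112), with no overlap between the groups, and its NSC livers overlapped baseline (0.24 ± 0.19, adjusted p = 0.343). Dnajc3 (p58IPK), an inhibitor of the PERK kinase and a BiP cofactor, was not called with vehicle (0.52 ± 0.21, adjusted p = 0.09) or NSC (0.42 ± 0.21, adjusted p = 0.139). Dnajb12, an ER membrane J-protein of ER-associated degradation, fell by 0.42 on the log2 scale with NSC (SE 0.14, adjusted p = 0.0361), a call kept in 8 of 18 alternatives and lost without any baseline replicate, vehicle replicate 1 or NSC replicate 1 or 2, and was at -0.23 ± 0.14 with vehicle (adjusted p = 0.255). The remaining ER members, Dnajb14, Dnajc1, Dnajc14, Dnajc16 and Pdia5, were not called in either comparison.

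**Figure D1:**
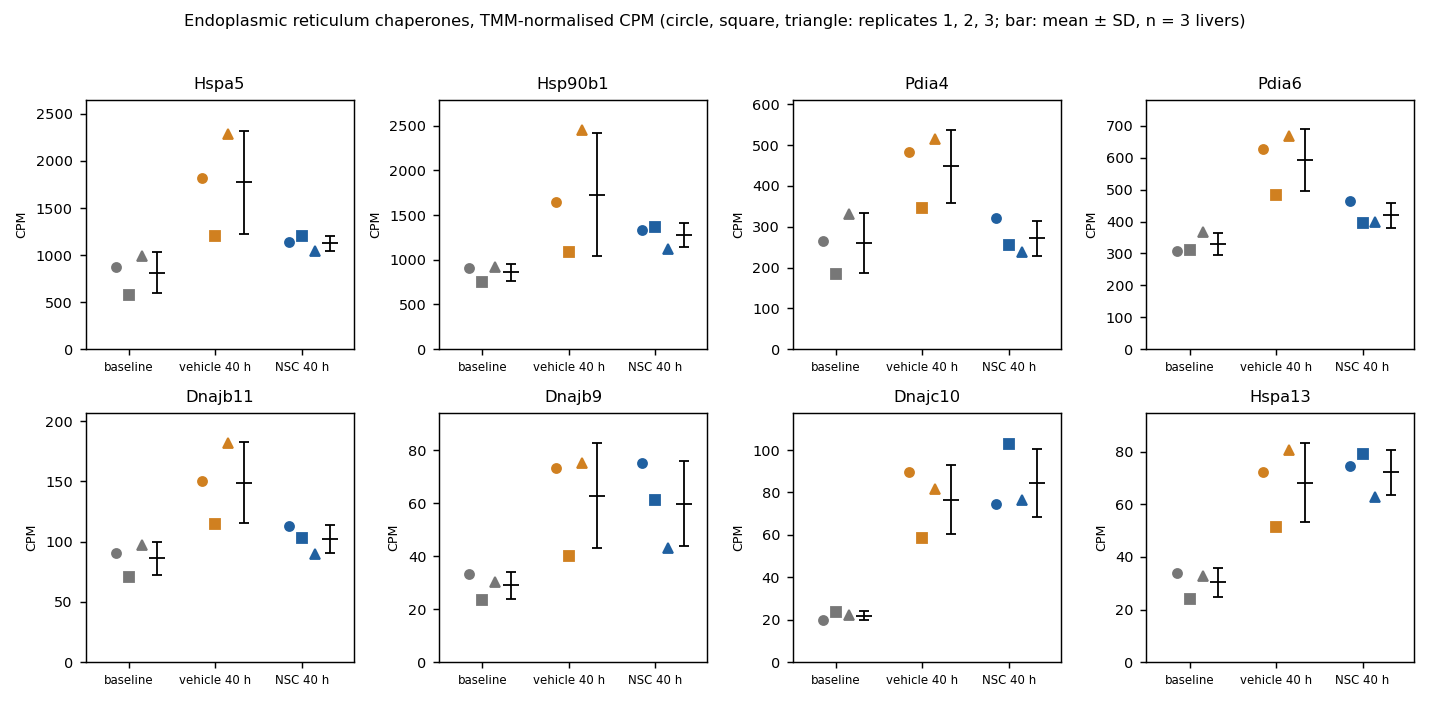
TMM-normalised CPM (y axis, from 0) of 8 ER chaperone genes in the 9 livers by group (x axis), with 1 point per liver and a bar for the mean ± SD of 3 livers. Hspa5, Pdia4, Pdia6 and Dnajb11 were higher with vehicle than at baseline with NSC livers lower than most vehicle livers, whereas Dnajb9, Dnajc10 and Hspa13 overlapped between the 40 h groups.

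With NSC at 40 h, 18.2% of all tested genes were called higher than baseline and 16.5% lower. Of the members, 14 of 65 were called higher (21.5%) and 2 lower (3.08%), and the share called higher was thus near that of all genes. Cytosolic or nuclear genes gave 10 of the 14 calls (10 of 28 tested), the ER gave 3 of 16, mitochondria 0 of 9 and other sites 1 of 12. Medians were 0.48 in the cytosol, 0.34 in the ER and 0.05 in mitochondria, against 0.01 over all tested genes. After the same GC correction 14.2% of all tested genes were called higher. The cytosolic count was then 5 of 28 with a median of 0.25, and the ER count was 2 of 16 with a median of 0.12. With 1 library left out, the cytosolic count ran from 5 of 28 without baseline replicate 3 to 11 without vehicle replicate 3. In those fits 12% and 17.8% of all tested genes were called higher. The comparisons with baseline share the 3 baseline livers. They had 10 called members in common, 66.7% of the vehicle calls and 62.5% of the NSC calls. Hspa5, Hsp90b1, Dnajb11, Pdia4 and Pdia6, all of the ER, were called with vehicle and not with NSC, and none of them was called between NSC and vehicle.

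**Figure D2:**
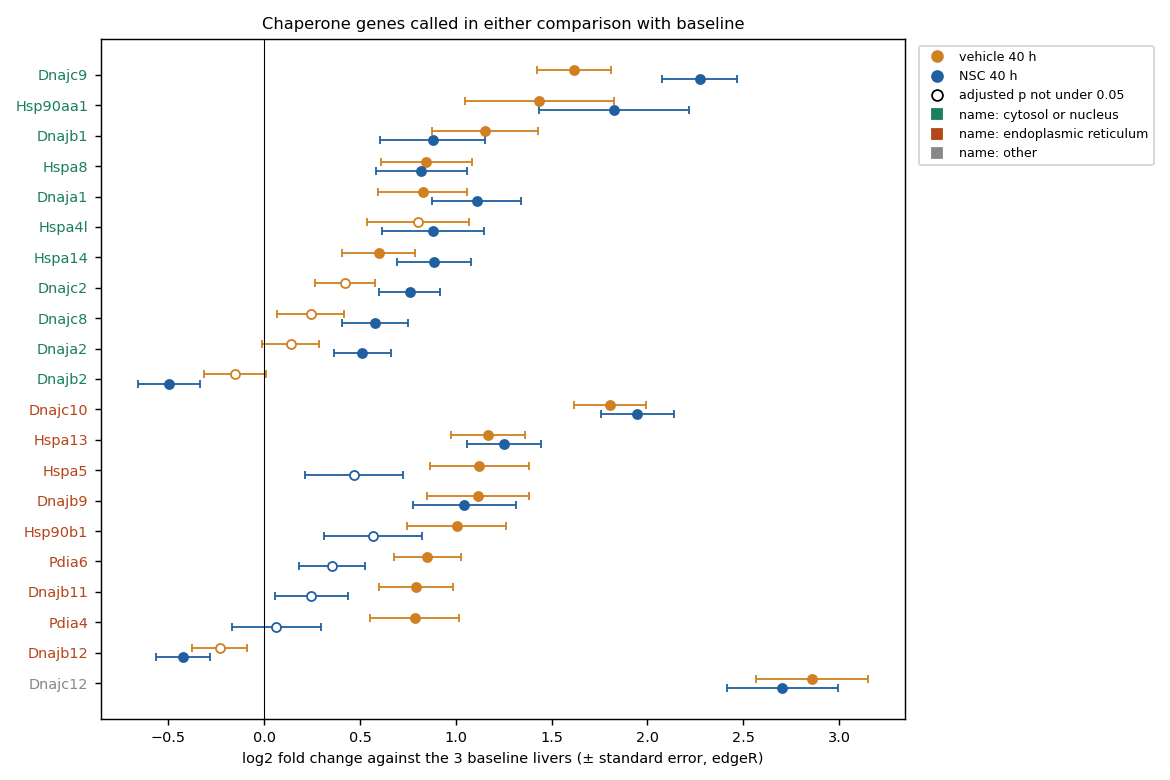
Log2 fold changes against the 3 baseline livers (x axis, ± SE) of the 21 members called in either comparison, with name colours for compartments and open points for adjusted p not under 0.05. Hspa5, Hsp90b1, Pdia6, Dnajb11 and Pdia4 have filled vehicle points and open NSC points, and Dnajc12, Dnajc10 and Dnajc9 lie farthest to the right.

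The direct comparison of NSC with vehicle at 40 h asked whether the drug altered the chaperone response itself. By edgeR, 0 members were called higher and 0 lower, against 0% and 0.0399% of all tested genes (6 genes called, all lower). At an unadjusted p under 0.05 there were 3 members higher and 9 lower, 12 in all, and 19.5% of all genes passed that mark. DESeq2 called 1 member higher, Dnajc9, and 0 lower, where it called 1.94% of all tested genes higher and 3.1% lower. Of the 9 lower members, 6 were in the ER, where 13 of 16 genes had a log2 fold change below 0 and the median was -0.21. Among all tested genes 48.5% were below 0, and 10.2% were lower at an unadjusted p under 0.05.

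The ER genes with the smallest p-values in this comparison were Pdia4, Dnajc16, Pdia6 and Dnajb11, and in each the NSC livers lay below all vehicle livers. Pdia4 was at -0.72 (95% interval -1.29 to -0.15, adjusted p = 0.14) and Pdia6 at -0.50 (-0.92 to -0.07, adjusted p = 0.16). Dnajc16, an ER J-protein, had 22.7, 28.6 and 19.7 CPM with vehicle and 18.6, 15.4 and 14.6 CPM with NSC, with a log2 fold change of -0.55 (-0.98 to -0.11, adjusted p = 0.142). Dnajb11 was at -0.55 (-1.01 to -0.08, adjusted p = 0.161). Hspa5 was at -0.66 (-1.28 to -0.03, adjusted p = 0.197) and Hsp90b1 at -0.44 (-1.06 to 0.19, adjusted p = 0.357). The sixth, Pdia5, was named after its values were seen, and was at -0.45 (-0.86 to -0.04, adjusted p = 0.181). In the whole ER group 6 of 16 genes had NSC livers below all vehicle livers, and 0 had them above. Among all tested genes 12.2% lay wholly below. Without vehicle replicate 3 the ER median was -0.09, with 11 of 16 genes below 0 and 3 lower at an unadjusted p under 0.05, and without vehicle replicate 2 it was -0.35. With library size alone as scaling it was -0.09, with 9 of 16 genes below 0 and 2 lower at an unadjusted p under 0.05, and with the GC correction it was -0.35.

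**Figure D3:**
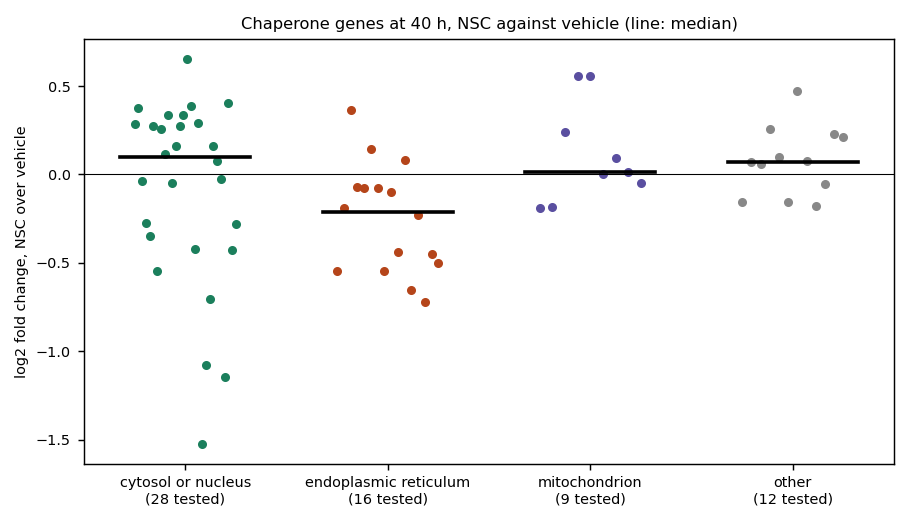
Log2 fold change of NSC over vehicle at 40 h (y axis) for the 65 tested members by compartment (x axis), with 1 point per gene and a line at the median. The ER median is -0.21 with 13 of 16 points below 0, and the other medians lie between 0.01 and 0.10.

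Markers of other liver cells also differed between the groups. The summed stellate or fibroblast markers, all 6 of them tested, were 158 to 190 CPM (190.5 at most) at baseline, 347 to 471 with vehicle and 204 to 407 with NSC. Summed cholangiocyte markers, all 4 tested, were 4.28 to 6.54, 15.0 to 18.6 and 8.73 to 11.4 CPM in the same order. With vehicle 4 of 6 stellate and 3 of 4 cholangiocyte markers were called higher, and between NSC and vehicle 0 of either were called. Summed macrophage markers, all 5 tested, were 99.4 to 148 CPM at baseline, 84.8 to 163 with vehicle and 165 to 274 with NSC, and 2 of 5 were called higher with vehicle and 3 of 5 with NSC. Neutrophil markers summed to 1.80 to 6.48 CPM at baseline, 7.60 to 15.0 with vehicle and 10.6 to 16.7 with NSC, with 1 of 3 tested called higher with vehicle and 3 of 3 with NSC, and Ly6g, Mpo and Camp were at or near 0. Among lymphocyte, endothelial and erythroid markers, 2 of 4, 1 of 5 and 1 of 4 tested were called lower with vehicle and 0 higher. With NSC 1, 0 and 1 of them were called lower and 0 higher. Summed erythroid markers were 215 to 311 CPM at baseline, 99.25 to 174 with vehicle and 122.5 to 219 with NSC. The part of any of these cell types in the ER values was not tested.

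The promoters of the ER members are shown because 8 of 16 ER genes were called higher with vehicle. A RefSeq promoter window (250 bases before to 50 after the start, GRCm38.p6) was found for 63 of the 77 symbols, 16 of them ER genes. These are not the 16 ER genes tested, since Pdia2, not tested, had a window and Hspa13, called with vehicle, had none. The ER stress response element (ERSE, CCAAT, 9 free bases, then CCACG, on either strand) is the element to which the factors ATF6 and NF-Y are known to bind. It occurred in 4 of the 16 ER genes with a window, in 0 windows of other members and in 0.119% of all 32851 windows (0.137% of 27025 genes). The stretches around each match follow 5′ to 3′ on the gene's strand, with the element in capitals.
Hspa5, chr2:34772013-34772055 (+): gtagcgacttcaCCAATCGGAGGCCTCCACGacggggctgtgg
Hsp90b1, chr10:86705521-86705668 (-): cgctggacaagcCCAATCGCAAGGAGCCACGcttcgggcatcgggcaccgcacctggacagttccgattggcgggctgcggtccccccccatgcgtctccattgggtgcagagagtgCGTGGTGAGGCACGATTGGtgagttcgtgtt
Pdia6, chr12:17266479-17266521 (+): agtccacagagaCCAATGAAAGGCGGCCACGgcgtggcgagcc
Dnajc3, chr14:118937815-118937857 (+): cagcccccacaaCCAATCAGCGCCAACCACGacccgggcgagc
Hsp90b1 has a pair of matches, the second on the opposite strand. Hspa5, Hsp90b1 and Pdia6 were called with vehicle and Dnajc3 was not. A related element, ERSE-II, was found in Dnajb11 (0.0365% of all windows), and the 8-base UPRE (TGACGTGG) in no ER window but in that of Dnajc25 (0.676% of all windows). A match is a description of these letters and not a measured binding site.

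The cytosolic or nuclear members called in both comparisons were Hspa8, Dnaja1, Hspa14, Dnajb1, Hsp90aa1 and Dnajc9. Hspa8 (Hsc70) had 643, 555 and 647 CPM at baseline, 868, 999 and 1448 CPM with vehicle and 790, 1128 and 1336 CPM with NSC, and every remnant lay above every baseline liver. It rose by 0.85 ± 0.24 with vehicle (adjusted p = 0.0222) and 0.82 ± 0.24 with NSC (adjusted p = 0.0187). Dnaja1, a class A J-protein that starts the cycle of Hsc70, had 102, 98.3 and 90.5 CPM at baseline, 142, 125 and 249 CPM with vehicle and 220, 178 and 228 CPM with NSC. Its log2 fold changes were 0.83 ± 0.23 (adjusted p = 0.0225) and 1.11 ± 0.23 (adjusted p = 0.00371). The vehicle calls of Hspa8 and Dnaja1 were lost without vehicle replicate 3 (0.61 for Hspa8 and 0.46 for Dnaja1) or without any of the baseline replicates. The NSC call of Hspa8 was lost without baseline replicate 2 or 3 or NSC replicate 2 or 3, and with the GC correction. The ribosome-associated Hsp70 Hspa14 rose by 0.60 ± 0.19 (adjusted p = 0.0404) and 0.89 ± 0.19 (adjusted p = 0.00427), and its vehicle call was lost without any vehicle replicate or baseline replicate 1 or 3.

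Dnajb1 (Hsp40), the class B J-protein typically induced by heat shock, had 16.9, 14.4 and 17.7 CPM at baseline, 26.0, 27.5 and 55.6 CPM with vehicle and 23.6, 33.5 and 33.1 CPM with NSC. It rose by 1.15 ± 0.28 with vehicle (adjusted p = 0.0123) and 0.88 ± 0.27 with NSC (adjusted p = 0.0295). The vehicle call held without vehicle replicate 3, at 0.71, and the NSC call was lost without any baseline replicate or NSC replicate 2 or 3.

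The paralogs of cytosolic Hsp90 differed. Hsp90aa1, the inducible form, had 128, 67.7 and 129 CPM at baseline, 210, 178 and 491 CPM with vehicle and 336, 412 and 403 CPM with NSC. Vehicle replicate 3 was above all NSC livers and the other vehicle livers were below them. Hsp90aa1 rose by 1.44 ± 0.39 with vehicle (adjusted p = 0.025), a call lost without baseline replicate 1 or 2 or vehicle replicate 3 (0.85 without the last), and by 1.83 ± 0.39 with NSC (adjusted p = 0.00635), a call kept in all 18 alternatives. Hsp90ab1, the constitutive form, had 858, 684 and 898 CPM at baseline, 695, 757 and 947 CPM with vehicle and 617, 591 and 585 CPM with NSC. Its NSC livers lay below all others, but the values of -0.02 ± 0.18 with vehicle (adjusted p = 0.942) and -0.44 ± 0.18 with NSC (adjusted p = 0.0711) did not pass. As a description, the ratio of Hsp90aa1 to Hsp90ab1 in FPKM was 0.0755 to 0.114 at baseline, 0.179 to 0.395 with vehicle and 0.415 to 0.532 with NSC, with no overlap between groups. For such a ratio of 3 livers against 3, an exact permutation test could not go below 0.1.

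The genes best known for acute heat shock were highest in a single vehicle liver. Hspa1b, an inducible Hsp70, had 1.20, 1.80 and 1.65 CPM at baseline, 3.23, 2.15 and 12.3 CPM with vehicle and 1.95, 1.90 and 4.46 CPM with NSC. Hspa1a, its near-identical neighbour on chromosome 17, had 0.253, 0.183 and 0.198 CPM at baseline, 0.576, 0.181 and 2.66 CPM with vehicle and 0.300, 0.272 and 0.587 CPM with NSC, from 6 to 72 counts per library. Reads of these copies are hard to assign, and the split between them is uncertain. Vehicle replicate 3 was the highest library for both genes.

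Neither gene was called with vehicle, at 1.91 ± 0.65 for Hspa1b (adjusted p = 0.0603) and 2.37 ± 0.84 for Hspa1a (adjusted p = 0.0619). Without vehicle replicate 3 these values were 0.80 and 0.84. DESeq2 and the fit without vehicle replicate 2 called both higher, where 14.3% and 10.1% of all tested genes were called higher. Hspa1b was also called with a replicate block, by the edgeR exact test and with the GC correction (12.7%, 17.6% and 13.3% of all tested genes). Hsph1 (Hsp110), which resets Hsp70 and helps dissolve aggregates, had 44.9, 26.9 and 46.8 CPM at baseline, 61.2, 53.2 and 132 CPM with vehicle and 72.6, 59.4 and 71.0 CPM with NSC. All remnants lay above baseline, and the values were 1.05 ± 0.34 with vehicle (adjusted p = 0.0521) and 0.78 ± 0.34 with NSC (adjusted p = 0.107). Without vehicle replicate 3 the vehicle value of Hsph1 was 0.54, and Hsph1 was called with vehicle in 6 of 18 alternatives. Hspb1, the small heat shock protein Hsp25, had 11.5, 6.14 and 14.8 CPM at baseline, 7.48, 5.68 and 22.3 CPM with vehicle and 7.65, 3.67 and 4.54 CPM with NSC. Its groups overlapped and it was not called (0.12 ± 0.56 with vehicle, adjusted p = 0.9). Without vehicle replicate 3 the vehicle value of Hspb1 was -0.71.

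**Figure D4:**
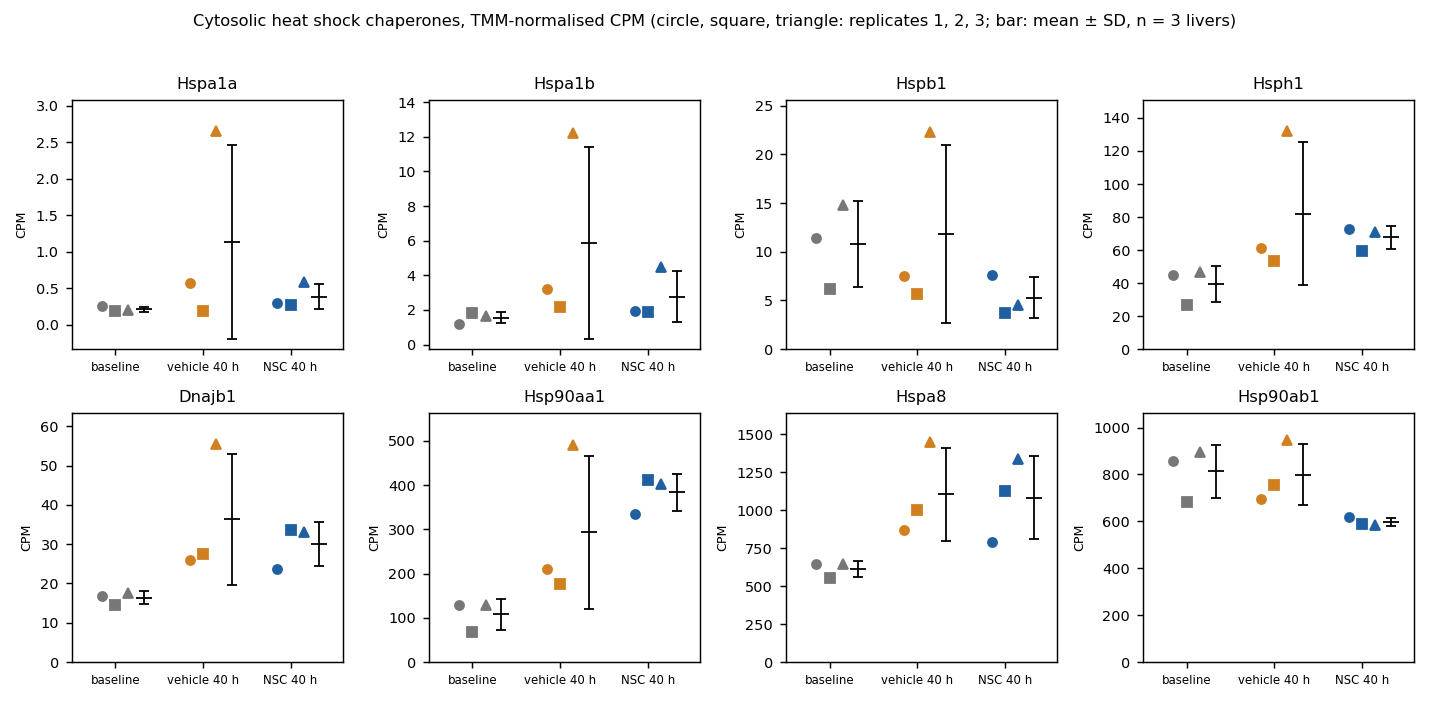
TMM-normalised CPM (y axis) of 8 cytosolic chaperone genes in the 9 livers by group (x axis), with 1 point per liver and a bar for the mean ± SD of 3 livers. The triangle of vehicle replicate 3 is the highest point for all 8 genes shown, and Hsp90ab1 is the gene whose NSC livers lie below every other liver.

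A further 5 cytosolic or nuclear members were called with NSC and not with vehicle. Dnajc2, a J-protein at the ribosome, rose by 0.76 ± 0.16 (adjusted p = 0.003365). The calls of Dnaja2 (0.51 ± 0.15), Dnajc8 of the spliceosome (0.58 ± 0.17) and Hspa4l, an Hsp110 relative (0.88 ± 0.27), had adjusted p of 0.0182, 0.0229 and 0.0262. Dnajb2 fell by 0.50 on the log2 scale with NSC (SE 0.16, adjusted p = 0.0316). All 5 calls were lost with the GC correction, where Dnajc2 was at 0.31 and Dnajb2 at -0.11, and the lowest values over the 18 alternatives were 0.105 for Dnaja2, 0.243 for Dnajc8 and 0.338 for Hspa4l. The calls of Dnajc8, Hspa4l and Dnajb2 were each lost without any 1 of 4 libraries, and that of Dnaja2 without baseline replicate 3. In the direct comparison their adjusted p ranged from 0.197 for Dnaja2 to 0.897 for Hspa4l. The differences between the groups were thus not shown for them.

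Dnajc9, a J-protein that chaperones histones H3 and H4, rose in both 40 h groups and was highest with NSC. It had 4.20, 3.79 and 4.19 CPM at baseline, 12.1, 12.4 and 12.9 CPM with vehicle and 14.1, 22.1 and 22.7 CPM with NSC, and the 3 groups did not overlap. Log2 fold changes against baseline were 1.62 ± 0.19 with vehicle (adjusted p = 0.000235) and 2.27 ± 0.20 with NSC (adjusted p = 2.47e-05). Between NSC and vehicle it stood at 0.65 (95% interval 0.20 to 1.11), with an adjusted p of 0.114 over 15024 genes and 0.00413 before adjustment, the smallest of the members. It passed with DESeq2 and without NSC replicate 1, where the value was 0.84. Those settings called 1.94% and 3.73% of all tested genes higher.

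Dnajc12, a J-protein that works with the aromatic amino acid hydroxylases, had the largest fold change of all tested members against baseline. It had 16.4, 11.6 and 18 CPM at baseline, 72.5, 134 and 128 CPM with vehicle and 70.2, 126 and 103 CPM with NSC. The 40 h groups overlapped each other and lay above baseline, with log2 fold changes of 2.86 ± 0.29 (adjusted p = 0.000142) and 2.70 ± 0.29 (adjusted p = 0.000136). Their difference was -0.15 (95% interval -0.82 to 0.51). It was the only one of the 12 tested members of other or unassigned sites to be called.

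None of the 9 mitochondrial genes was called in any comparison, and their log2 fold changes against baseline ran from -0.30 to 0.33. Hspa9 (mortalin), which pulls proteins through the import channel, had 576, 542 and 545 CPM at baseline, 487, 406 and 455 CPM with vehicle and 529, 459 and 451 CPM with NSC. Every remnant lay below every baseline liver, and the values of -0.30 ± 0.15 with vehicle (adjusted p = 0.171) and -0.21 ± 0.15 with NSC (adjusted p = 0.31) did not pass. With the GC correction Hspa9 was called lower with NSC, at -0.45 (adjusted p = 0.0263 by edgeR). Without NSC replicate 1 the pair of Dnajc19 genes, which serve protein import, was called higher with NSC against baseline and against vehicle. In that setting 17.8% and 3.73% of all tested genes were called higher in those comparisons. Hspd1 (Hsp60), the barrel of the mitochondrial chaperonin, had 355, 367 and 336 CPM at baseline, 385, 321 and 522 CPM with vehicle and 441, 400 and 401 CPM with NSC (399.5 at the lowest). It was at 0.21 ± 0.18 with vehicle (adjusted p = 0.431) and 0.23 ± 0.18 with NSC (adjusted p = 0.358). Without vehicle replicate 3 the vehicle value of Hspd1 was 0.004. Hspe1 (Hsp10), the lid of that barrel, was at 0.10 ± 0.24 and 0.05 ± 0.24, and Dnaja3, the J-protein of mortalin, at 0.01 ± 0.14 and -0.18 ± 0.14. The FPKM ratio of Hspa5 to Hspa9, the ER and mitochondrial Hsp70, was 0.98 to 1.70 at baseline, 2.75 to 4.69 with vehicle and 2.00 to 2.43 with NSC, given as a description.

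Hspd1 and Hspe1 lie head to head on chromosome 1 and share a promoter, shown because the chaperonin subunits carry a heat shock element without having been called. The heat shock element (HSE) was searched as 3 alternating blocks of GAA and TTC with pairs of free bases between them, on both strands. It occurred in 4 of the 63 matched symbols (Hspd1, Hspe1, Dnajb6 and Hsph1) and in 0.603% of all windows. Symbols without a window, among them Hsp90aa1, Hsp90ab1, Hspa8 and Hspa9, were not searched. Overlapping matches on either strand are in capitals.
Hspd1, chr1:55088047-55088088 (-): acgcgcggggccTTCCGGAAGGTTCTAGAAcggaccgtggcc
Hspe1, chr1:55088047-55088088 (+): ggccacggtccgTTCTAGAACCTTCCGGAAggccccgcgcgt
No match of this strict pattern in a window says only that these letters are not there.

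The other genes of the pathways were taken from lists written with earlier results of these data known. Of 32 further ER folding and quality control genes tested, 15 were called higher and 1 lower with vehicle, and 9 higher and 3 lower with NSC. The shares of all tested genes were 12.7% and 11% with vehicle and 18.2% and 16.5% with NSC, for these lists as for the members. With vehicle these were led by Fkbp11 (1.77 ± 0.31), Manf (1.32 ± 0.25) and Creld2 (2.18 ± 0.38), which are secreted or resident ER proteins induced by ER stress, with adjusted p of 0.00312, 0.00341 and 0.00367. Creld2 had 35.2, 24.8 and 50.3 CPM at baseline, 138, 96.6 and 266 CPM with vehicle and 67.1, 54.1 and 60.4 CPM with NSC. With NSC they were led by the oxidoreductase Tmx1 (1.00 ± 0.15), the thioredoxin-like Txndc12 (0.89 ± 0.14) and the mannosidase-like Edem3 (0.90 ± 0.16). Herpud1, a scaffold of ER-associated degradation, fell in both groups, in log2 terms by 1.06 (vehicle) and 1.79 (NSC), and Sil1, the exchange factor of BiP, and Os9 fell with NSC by 0.91 and 0.88. The median of the list was 0.49 with vehicle, 0.19 with NSC and -0.33 between NSC and vehicle, where 0 genes were called.

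Of 9 sensors and factors of the unfolded protein response, 3 were called higher and 1 lower with vehicle, and 1 higher and 1 lower with NSC, where neither count is above the share of all genes (18.2% and 16.5%). Xbp1, a transcription factor activated by IRE1, rose by 0.88 ± 0.20 with vehicle (adjusted p = 0.00802) and 0.77 ± 0.20 with NSC (adjusted p = 0.0101). Ddit3 (CHOP), a transcription factor induced by PERK signaling, had 6.41, 4.12 and 6.67 CPM at baseline, 27.8, 17.1 and 38.4 CPM with vehicle and 17.2, 5.74 and 5.71 CPM with NSC. It rose by 2.27 ± 0.50 with vehicle (adjusted p = 0.0128) and was at 0.74 ± 0.49 with NSC (adjusted p = 0.272), with 2 of 3 NSC livers in the baseline range. Eif2ak3 (PERK) rose by 0.61 ± 0.21 with vehicle (adjusted p = 0.0488). Ppp1r15a (GADD34), which directs dephosphorylation of eIF2alpha, in log2 terms fell by 0.90 (vehicle) and 1.56 (NSC), with adjusted p of 0.00492 and 0.000175.

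Of 22 cochaperones of Hsp70 and Hsp90, 2 were called higher and 1 lower with vehicle, and 4 higher and 3 lower with NSC. These shares were at or below those of all tested genes (12.7% and 11%, 18.2% and 16.5%). Chordc1, an Hsp90 cochaperone, rose by 1.13 ± 0.26 and 1.49 ± 0.26 (adjusted p = 0.00949 and 0.00159). Bag3, which links Hsp70 to autophagy, rose by 0.61 ± 0.15 with vehicle, and Bag4 fell by 0.71 on the log2 scale. With NSC the Hsp90 partners Ptges3 (0.85 ± 0.25) and Cacybp (0.89 ± 0.26) rose, whereas Bag6, Cdc37 and Bag2 fell by 0.86, 0.53 and 0.78 on the log2 scale. Of 14 subunits of the TRiC chaperonin and prefoldin, 1 was called higher with vehicle and 2 with NSC, also below the shares of all genes. The prefoldin subunit Vbp1 rose by 1.09 ± 0.25 with vehicle and 1.98 ± 0.25 with NSC, and Pfdn4, also of prefoldin, by 1.31 ± 0.27 with NSC.

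The 3 heat shock factors tested, of 4 listed, gave 0 calls with vehicle and 1 with NSC, Hsf2 at 0.54 ± 0.18 (adjusted p = 0.0342). Hsf1, the main factor of the heat shock response, was at -0.0037 ± 0.16 with vehicle and -0.32 ± 0.16 with NSC (adjusted p = 0.991 and 0.141). Of 16 further mitochondrial chaperones and proteases, 0 were called higher and 2 lower with vehicle, and 1 higher and 7 lower with NSC. Of all tested genes 11% were lower with vehicle, near the list's share, and 16.5% with NSC. Trap1, the mitochondrial Hsp90, fell by 0.61 and 0.98 on the log2 scale and the prohibitin Phb2 by 0.62 and 0.73, while the Lon protease Lonp1 fell by 1.09 and the protease Yme1l1 rose by 0.66 with NSC. Between NSC and vehicle 0 genes of any of these lists were called.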

How the data were processed

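Whole liver RNA was sequenced in 9 stranded mRNA libraries. The authors aligned reads with STAR 2.6.1 within MAP-RSeq, counted them with Subread 1.5.1 and deposited raw counts per gene. The deposited FPKM values are those counts scaled by gene length and total counts, without TMM. The labels name hg38, but the identifiers and coordinates are of mouse, and 53 of 78 members have the start and end of GENCODE M21 (GRCm38), which is taken as the build.

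The tests used edgeR 4.0.16 under R 4.3.3 (filterByExpr, TMM, 1 robust quasi-likelihood fit of all 9 libraries on the group). Each of the 3 comparisons was adjusted over 15024 genes. The SE is the absolute log2 fold change over the square root of F. The 95% intervals use the residual degrees of freedom of the fit alone, fewer than the test itself used. They are thus wider than the p-values imply. On data simulated for vehicle against baseline, with 200 of 15024 genes changed, 92 were called at fold 2 and 191 at fold 4. Unchanged genes called beside them were 13 at fold 2 and 19 at fold 4, and 1 gene was called with none changed. At either fold the unchanged genes were a larger share of the calls than the threshold of 0.05. The chi-square per gene between libraries of a group was far above sampling noise, so no library was a copy of another. The floor of 3 counts was 0.0751 to 0.117 CPM per library and covers counting error only.

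The members and lists were chosen with earlier results of these data known. The text names a fixed set of 21 chaperones, up to 5 called members per comparison and direction by adjusted p, the 5 with the smallest p between NSC and vehicle, the 10 highest at baseline by FPKM, and up to 3 genes per pathway list and direction. Hspa14, Dnaja2, Dnajc8, Hspa4l, Pdia5, the Hspa5 to Hspa9 and Hsp90aa1 to Hsp90ab1 ratios and the uncalled ER members were added after their values were seen. The symbol of 1 of the cell type markers was not matched. Alternatives were other scalings, filters, tests (DESeq2 1.42.0 and the edgeR exact test), thresholds, a replicate block, each library left out, and a GC correction.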

Additional observations from a re-analysis of the deposited data

How the results depend on the processing

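Of the counts and compartment medians, 250 values under alternatives stayed near those reported and 32 moved. The 15 vehicle calls higher became 3 with an absolute log2 fold change over 1.5, 6 at an adjusted p under 0.01 (5.03% and 6.37% of all genes), and 9 to 21 with 1 library left out. The 9 were without vehicle replicate 3 and the 21 without vehicle replicate 2, where 9.12% and 10.1% of all genes were called higher. The 0 vehicle calls lower became 1 in a fit of the 2 groups alone and 1 by the edgeR exact test, and 0 to 1 with 1 library left out. Of all genes 14.1% were called lower in that fit, 15.2% by the exact test and 6.77% to 13.7% with 1 library left out. The 14 NSC calls higher became 9 with the GC correction, 4 with the fold limit, 8 at an adjusted p under 0.01 (14.2%, 5.38% and 10.3% of all genes) and 9 to 17 with 1 library left out. Among fits with 1 library left out, the lowest count came without baseline replicate 3 (12% of all genes). The highest came without vehicle replicate 3 or NSC replicate 1 (17.8% in each). The 2 NSC calls lower became 0 with library size only, with the fold limit or at an adjusted p under 0.01, 1 with all genes of at least 1 count, 4 by DESeq2 and 0 to 3 with 1 library left out. In that order 11.9%, 2.75%, 9.54%, 9.85%, 18.5% and, with 1 library left out, 11.4% to 16.1% of all genes were called lower. Between NSC and vehicle, the 0 calls higher became 1 by DESeq2 and 0 to 4 with 1 library left out. The 4, without NSC replicate 1, include the pair of overlapping Dnajc19 genes. Of all genes 1.94% were called higher by DESeq2 and 3.73% without NSC replicate 1.

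Medians with NSC against baseline were 0.25 in the cytosol and 0.12 in the ER with the GC correction. The mitochondrial median was 0.19 with library size only, -0.13 with the GC correction and -0.0219 to 0.16 with 1 library left out. Between NSC and vehicle it was 0.14 with library size only and -0.0366 to 0.23 with 1 library left out, the cytosolic median was -0.02 with the GC correction, and the ER median was -0.09 with library size only and -0.35 with the GC correction. Library size alone moved the median of all genes to 0.15 with NSC and to 0.14 between NSC and vehicle. Causes were not tested.

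Reversed log2 fold changes were all of values without a call in that comparison. With vehicle, Hspe1 was -0.0101 with the GC correction, and Dnaja3 was -0.0085 with RLE factors and -0.0084 by DESeq2. With NSC, the GC correction gave -0.21 for Hspe1 and -0.0719 for Pdia4. Between NSC and vehicle it gave -0.10 for Hspd1, -0.0108 for Dnaja1 and -0.0663 for Hspa9, and library size only gave 0.0839 for Hspe1, 0.10 for Hspa8, 0.0402 for Dnajb9 and 0.0209 for Dnajc3. With 1 library left out, vehicle values ran from -0.29 to 0.30 for Hspe1, -0.71 to 0.46 for Hspb1, -0.0236 to 0.0594 for Dnaja3 and -0.16 to 0.0718 for Hsp90ab1. NSC values ran from -0.0861 to 0.16 for Hspe1 and -0.14 to 0.28 for Pdia4. Between NSC and vehicle they ran from -0.13 to 0.23 for Hspd1, -0.25 to 0.34 for Hspe1, -0.51 to 0.24 for Hsph1, -0.47 to 0.17 for Dnajb1, -0.21 to 0.21 for Hspa8, -0.31 to 0.12 for Dnajb9, -0.31 to 0.0448 for Dnajc3, -1.60 to 0.033 for Hspa1b and -2.05 to 0.0056 for Hspa1a.

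The replicate numbers are shared by the groups, but the labels state no pairing and none was assumed. Deviations from the group mean correlated between -0.048 and 0.134 for libraries with the same number. For libraries of different groups with different numbers they correlated between -0.115 and 0.066. With 3 libraries per group, correlations this small cannot decide whether libraries were paired. With a replicate block the calls were 17 higher and 0 lower with vehicle, 15 higher and 3 lower with NSC, and 0 and 0 between NSC and vehicle. Of all genes 12.7% and 11.2%, 17.7% and 16.7%, and 0% and 0.0732% were called, in the same order. With 3 livers per group the fold 2 changes of the simulated data were recovered in 92 of 200 genes.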
